A study of Homo sapiens with 3 samples.

Results

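The replication-dependent histone genes supply the core histones H2A, H2B, H3 and H4 and the linker histone H1 that package newly made DNA. They were taken as every protein-coding row of the deposited gene table whose symbol begins with HIST1H, HIST2H, HIST3H or HIST4H, which gave 71 of 58735 genes. Of these, 6 encode H1, 17 encode H2A, 18 encode H2B, 15 encode H3 and 15 encode H4. RNA was sequenced from the established human line HGC-27, derived from a gastric cancer, in 3 libraries. The control library carried a short hairpin RNA named shControl and is labelled wild type, and there were 2 libraries labelled shUSP16-1 and shUSP16-2, with a hairpin against USP16, an enzyme known to take ubiquitin off histone H2A. Whether shUSP16-1 and shUSP16-2 stand for separate hairpins, clones, cultures or repeat preparations is not in the labels. All p-values here therefore reflect library-to-library spread that may be technical. Growth in 1640 medium with serum is given for all 3 libraries. A protocol with dexamethasone, isobutylmethylxanthine and insulin is also attached to all 3, and whether these cells received it is unclear.

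Most histone mRNAs are unusual among animal mRNAs in ending in a conserved stem-loop rather than a poly(A) tail. The stem-loop is bound by the protein SLBP, and cleavage just behind it by the U7 small nuclear ribonucleoprotein makes the mRNA end, in a process tied to S phase of the cell cycle. Some of the same genes also make longer transcripts that run past the stem-loop to a poly(A) signal, which are known from cells that have left the cell cycle and from tumours.

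The stem-loop is shown here because the members divided by where their annotated transcripts end relative to it. GENCODE 29 transcripts on GRCh38 were searched on the sense strand for the histone stem-loop motif of 16 bases, which was found in a transcript of 32 of the 71 members (45.1%) and in 10 of 19851 other protein-coding genes (0.0504%). It took 6 forms, printed with the arms of the stem, of 6 bases each, in capitals and the loop of 4 bases in lower case.
H2A, H2B and H3 form (17 members): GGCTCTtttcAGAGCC
H2B and H3 form (5 members): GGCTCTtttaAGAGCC
H4 form (5 members): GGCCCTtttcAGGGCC
Second H4 form (3 members): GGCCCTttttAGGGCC
HIST1H3E: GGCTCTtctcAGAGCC
HIST1H2AG: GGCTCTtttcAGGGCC
The H4 forms differed from the others in the stem, and no H1 model held the motif. In HIST1H2AC the stem-loop lies at chr6:26124669-26124684 on the plus strand, and annotated transcripts go on for up to 1128 bases after it. In HIST1H3H it lies at chr6:27810516-27810531, plus strand, with 769 bases after it. In HIST1H2AE, at chr6:26217417-26217432, plus strand, only 51 bases follow. A gene model was called extended where a transcript ran at least 100 bases past the stem-loop, or lacked the stem-loop and had AATAAA or ATTAAA in its last 50 bases. By this rule 25 members had an extended model. Another 8 had the stem-loop with fewer than 100 bases after it, and are called models that ended at the stem-loop. The other 38 had a model with neither feature, such as the 381 bases of HIST1H2BK. These 38 models say nothing of where the transcripts end in cells. The rule was written after the members' values had been seen.

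Promoters are shown for an extended member of the H2A type, an extended member of the H3 type and HIST1H2AE. The sequences are the 150 bases before the RefSeq start on GRCh38.p14, plus strand, with matches to ATTTGCAT (the octamer), CCAAT and TATAAA on either strand in capitals. The marked matches do not overlap each other.
HIST1H2AC (RefSeq H2AC6), chr6:26124022-26124171: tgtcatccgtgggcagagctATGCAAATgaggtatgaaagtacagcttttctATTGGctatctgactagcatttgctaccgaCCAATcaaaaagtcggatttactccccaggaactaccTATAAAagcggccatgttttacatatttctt
HIST1H3H (RefSeq H3C10), chr6:27809901-27810050: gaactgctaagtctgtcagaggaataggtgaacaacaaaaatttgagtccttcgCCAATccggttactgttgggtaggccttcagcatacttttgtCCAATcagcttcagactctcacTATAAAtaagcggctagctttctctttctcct
HIST1H2AE (RefSeq H2AC8), chr6:26216771-26216920: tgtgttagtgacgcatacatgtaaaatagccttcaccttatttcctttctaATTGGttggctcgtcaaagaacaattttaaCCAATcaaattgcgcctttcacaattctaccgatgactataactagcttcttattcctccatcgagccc
RefSeq promoters could be matched for 66 members. Within 250 bases before the start, CCAAT was present in 56 of 66 (84.8%) against 36.9% of 27243 other genes, and in every matched H1, H2A, H2B and H3 promoter but only 3 of 13 H4 promoters. The octamer, a site for OCT1 in H2B genes, was present in 11 of 16 H2A and 10 of 18 H2B promoters, in 1 of 13 H3 promoters and in no H1 or H4 promoter, against 1.95% of other genes. TATAAA was present in 71.2% of matched members against 12.9% of other genes. A match describes these letters only.

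Reads recovered from the deposited values came to between 29530581 and 31187845 per library. USP16 itself was at 6.28 FPKM (a level scaled for gene length and library total) in shControl, 4.29 in shUSP16-1 and 5.98 in shUSP16-2, ratios of 0.683 and 0.952 to shControl, so the targeted gene was barely lower in the library labelled shUSP16-2. In limma USP16 differed by -0.26 on the log2(FPKM + 1) scale (SE 0.20, adjusted p = 0.564), and each direction below rests on the labels. Of 8 epithelial and gastric markers, 3 were at 0, KRT19 and TFF1 among them, and the summed level of all 8 ran from 0.206 to 0.750 FPKM. The 4 mesenchymal markers summed to 164 to 189 FPKM, of which VIM alone made up 155 to 180. Only 2 of them, VIM and ZEB1, had a mean of at least 1 FPKM. FN1 ran from 0.605 to 1.05 FPKM and CDH2 from 0.0135 to 0.0621. Of 6 blood and endothelial markers 5 were at 0. In bulk RNA, fewer cells in a given state and less RNA per cell cannot be told apart.

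All histone members together held fewer reads in both libraries labelled shUSP16 than in shControl. The sums were 4474 reads (shControl), 3139 (shUSP16-1) and 2805 (shUSP16-2), and ratios below use the library totals implied by the authors' scaling. Relative to shControl, shUSP16-1 was at 0.764 (95% interval 0.730 to 0.800, exact binomial) and shUSP16-2 at 0.658 (0.628 to 0.690). These intervals, and those below, cover counting error only. Over genes with at least 10 reads in the 2 shUSP16 libraries together, these libraries differed by a chi-square of 11.9 per degree of freedom. That spread is beyond counting error, so the intervals understate the spread between libraries. With sums of reads as totals the ratios were 0.716 and 0.606. Both ratios share the single control library, so they are not independent of each other.

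The core histone types lay below shControl more than H1 did. H3 was at 0.667 of shControl in shUSP16-1 (0.584 to 0.762) and 0.554 in shUSP16-2 (0.481 to 0.637). H4 was at 0.633 (0.554 to 0.721) and 0.688 (0.605 to 0.781). H2A was at 0.797 (0.724 to 0.878) and 0.642 (0.580 to 0.710), and H2B at 0.801 (0.747 to 0.858) and 0.649 (0.603 to 0.698). For H1, at 0.870 (0.736 to 1.03) and 0.896 (0.761 to 1.05), both intervals included 1. That depended on the scaling. With sums of reads as totals H1 was at 0.814 (0.689 to 0.961) and 0.824 (0.700 to 0.970), and both intervals lay below 1. H2A, H2B and H3 were lower in shUSP16-2 than in shUSP16-1. The intervals of shUSP16-2 over shUSP16-1 spanned 1 for H1 and H4, with H4 at 1.09 of its shUSP16-1 level (0.941 to 1.26). No H1 model was extended, and the contrast with H1 did not hold among models outside the extended class. Averaged over both libraries, these were at 0.883 for H1, 0.857 for H2B, 0.873 for H3, 1.14 for H2A and 1.44 for H4. The differences between types were not tested.

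**Figure D1:**
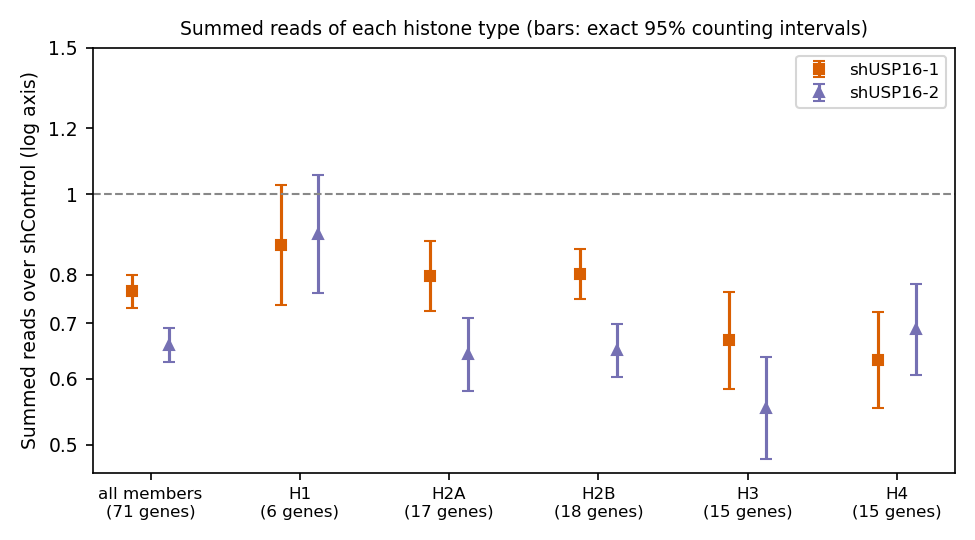
Summed reads of all members and of each histone type relative to shControl (log axis), with shUSP16-1 as squares and shUSP16-2 as triangles; bars are exact 95% counting intervals. All points lie below 1, and the H1 bars reach past 1.

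Few members carried most of the signal. The 10 members with the most reads held 73.0% of all member reads, and HIST1H2BK alone held 16.9%. Of the 71 members, 20 had a mean of at least 1 FPKM and were tested, 46 had at least 10 reads over the 3 libraries, 15 had 1 to 9 reads, and 10 had none, a count that allows up to 3 reads in each library. The filter kept 1 member (HIST3H2BB) that reached 1 FPKM in shControl but not in the shUSP16 mean, and 1 (HIST1H2BO) the other way round, and left out 2 that reached it in shControl only and 2 that reached it in the shUSP16 mean only.

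Among H3 genes, which encode the histone whose tail carries many regulatory marks, HIST1H3H had 4.77 FPKM in shControl, 2.35 in shUSP16-1 and 2.29 in shUSP16-2, from 192, 87 and 88 reads. Both shUSP16 values lay close together and far below the control. HIST1H3H (ENSG00000278828, chr6:27810064-27811300, plus strand, GRCh38) differed by -0.80 on the log2(FPKM + 1) scale (limma SE 0.14, adjusted p = 0.272). HIST1H3E was at 3.55 FPKM in shControl, 2.07 in shUSP16-1 and 1.94 in shUSP16-2, a log2 difference of -0.60 (limma SE 0.16, adjusted p = 0.280). HIST1H3I, the other tested H3 gene, had 1.35, 1.71 and 1.18 FPKM from 18, 21 and 15 reads, so its shUSP16 values lay on either side of the control.

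Among H4 genes, HIST1H4H was at 2.33 FPKM in shControl and 1.21 in each library labelled shUSP16, from 164, 78 and 81 reads. Its log2 difference was -0.59 (limma SE 0.19, adjusted p = 0.311). HIST1H4I had the highest H4 level, 6.08 FPKM in shControl, 4.16 in shUSP16-1 and 4.96 in shUSP16-2. HIST1H4C overlapped the control instead, at 1.98 FPKM in shControl, 1.46 in shUSP16-1 and 3.26 in shUSP16-2, from 28, 19 and 44 reads. HIST1H4A, just under the filter, had 2, 19 and 4 reads.

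Among H2A genes, whose product is the substrate of USP16, HIST1H2AC had the widest difference. It was at 8.25 FPKM in shControl, 5.20 in shUSP16-1 and 3.37 in shUSP16-2, from 448, 259 and 174 reads. HIST1H2AC (ENSG00000180573, chr6:26124145-26139116, plus strand) had ratios to shControl of 0.630 (0.538 to 0.736) and 0.408 (0.340 to 0.487) and a log2 difference of -0.83 (limma SE 0.23, adjusted p = 0.292). HIST3H2A had 10.6, 10.3 and 7.86 FPKM, nearly level with the control in shUSP16-1, and HIST1H2AG 2.21, 1.86 and 1.61 FPKM. HIST1H2AE lay above the control, by little in shUSP16-1 and by more in shUSP16-2, with 1.09 FPKM in shControl, 1.12 in shUSP16-1 and 2.79 in shUSP16-2, from 18, 17 and 44 reads. HIST2H2AC, at 1.73, 1.37 and 1.99 FPKM, lay on both sides, and HIST1H2AI was at 1.71, 1.53 and 1.15 FPKM.

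Among H2B genes, HIST1H2BK had the highest level of all members per length, at 55.6 FPKM in shControl, 49.4 in shUSP16-1 and 42.8 in shUSP16-2, a modest difference of -0.27 on the log2 scale (limma SE 0.14, adjusted p = 0.415). Its deposited length of 381 bases covers the coding sequence, while RefSeq lists 2 mRNAs for it, so its level per length rests on that short model. HIST1H2BD was at 11.5, 8.34 and 6.78 FPKM, a log2 difference of -0.55 (limma SE 0.16, adjusted p = 0.292). HIST2H2BE was at 5.12, 3.10 and 2.15 FPKM, from 366, 203 and 146 reads, a log2 difference of -0.77 (limma SE 0.20, adjusted p = 0.280). Both genes stepped down from shControl to shUSP16-1 to shUSP16-2, while HIST1H2BJ and HIST1H4I were lowest in shUSP16-1, as USP16 was. Any link between the level of a member and that of USP16 was not tested. HIST1H2BJ was at 2.04, 0.881 and 1.39 FPKM and HIST3H2BB at 1.46, 1.01 and 0.669 FPKM. HIST1H2BC, just under the filter, was at 1.36, 0.963 and 0.503 FPKM. HIST1H2BO lay above the control, at 0.967, 1.67 and 1.10 FPKM from only 12, 19 and 13 reads.

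Among H1 genes, HIST1H1C held most of the reads, at 13.0 FPKM in shControl, 11.3 in shUSP16-1 and 10.6 in shUSP16-2. HIST1H1E was at 1.59, 1.42 and 1.07 FPKM. HIST1H1B, just under the filter, was read 12, 10 and 38 times in the same order, so it lay high in shUSP16-2 only. HIST1H1C and HIST1H1E lay below the control in both libraries, with mean differences of -0.23 and -0.21 on the log2(FPKM + 1) scale.

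**Figure D2:**
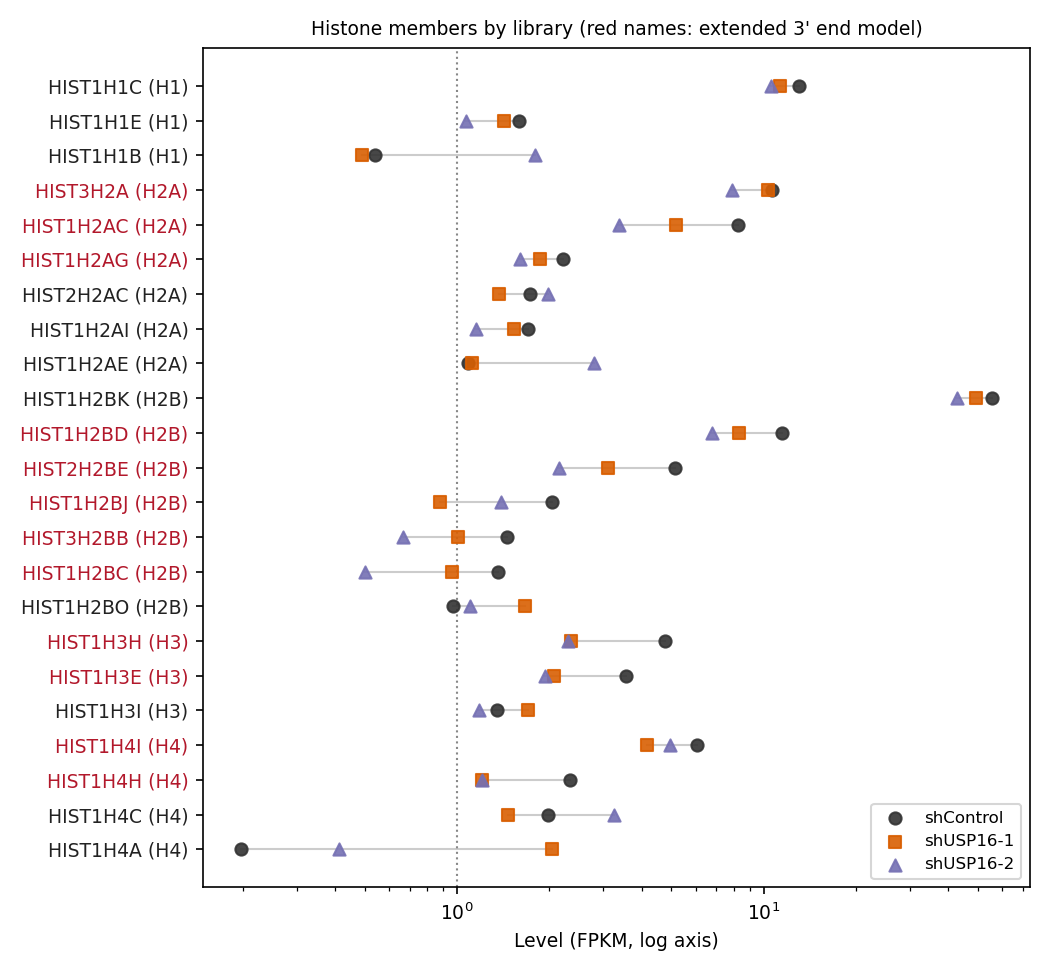
Level in FPKM (log axis) of the 20 tested members and of 3 members within 0.25 FPKM below the filter (dotted line at 1 FPKM is the filter on the mean), with shControl as circles, shUSP16-1 as squares and shUSP16-2 as triangles; red names mark extended gene models. For each red name the circle lies to the right of the square and the triangle.

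The limma test, fitted on the 13852 genes that passed the 1 FPKM filter, called 0 genes at an adjusted p under 0.05 (0%) and 0 of the 20 tested members. At an unadjusted p under 0.05 there were 6 members, all lower, where 2008 genes (14.5%) passed and 801 (5.78%) were lower. Restricted to 11069 protein-coding genes, limma called 48 genes (0.434%, with 0.28% lower), among them 1 member, HIST1H3H (adjusted p = 0.0445). limma voom on the recovered reads called 348 genes (2.51%, with 1.04% lower) and 1 member, HIST1H2AC (adjusted p = 0.0496). With sums of reads as totals voom called 557 genes (4.02%, with 3.02% lower) and 2 members, HIST1H2AC (adjusted p = 0.0169) and HIST2H2BE (adjusted p = 0.0228). Above a filter of 5 FPKM, limma called 13 of 7639 genes (0.17%, with 0.131% lower) and 0 of the 6 members left. The spread rests on 2 libraries, and these calls depend on the fit.

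Both libraries labelled shUSP16 lay below shControl for 15 of the 20 tested members and above it for 2, where both lay below for 32.4% of all tested genes, 28.2% of tested protein-coding genes and 46.8% of the 109 tested protein-coding genes under 1000 bases. Of the 12 tested members under 1000 bases, 7 lay below in both libraries and 2 above in both, nearer to the share of short genes. All 8 longer ones lay below in both. With the libraries taken separately, 17 of 20 members lay below shControl in shUSP16-1 and 16 in shUSP16-2, against 43.5% and 44% of all tested genes, 38.9% and 39% of protein-coding genes and 57.8% and 59.6% of those under 1000 bases. Both lay above shControl for 44.9% of all tested genes, 50.2% of protein-coding genes and 29.4% of those under 1000 bases. These shares moved with the scaling. With FPKM rescaled to equal sums of reads, both libraries lay below shControl for 45.4% and above for 31.3% of all tested genes (42.6% and 34.6% of protein-coding genes), and with median ratio scaling for 38.5% and 37.9%. The members' counts were then 15 below and 1 above under either rescaling, and all 11 tested members with extended gene models stayed below. The median difference of the tested members was -0.24 in shUSP16-1 and -0.34 in shUSP16-2, against 0.041 and 0.043 for all tested genes. For protein-coding genes under 1000 bases the medians were -0.046 and -0.10, and for the 12 members of that length -0.13 and -0.30. At least 1.5-fold below shControl in both libraries were 5 members, HIST1H3H, HIST1H3E, HIST1H4H, HIST1H2AC and HIST2H2BE, where 4.26% of tested genes were that low, and 0 members were at least 1.5-fold above, where 2.05% were.

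Most of the difference in reads lay in the members with extended gene models. These 25 members already held 72.1% of all member reads of shControl. An equal fold difference in every member would therefore also have put most of the difference there. Their share was lower among the reads of shUSP16-1 (66.0%) and lower again among those of shUSP16-2 (62.9%). The rule for this class was written after the members' values had been seen. All 11 tested members with an extended model lay below shControl in both libraries, with medians of -0.57 and -0.59, and they included the 5 that were at least 1.5-fold lower. HIST3H2BB, among these 11, reached 1 FPKM in shControl but not in the shUSP16 mean, so the filter favoured its direction. HIST1H2BO, not extended, was the reverse. Of the 9 other tested members 4 lay below in both, 2 above in both and 3 on either side, with medians of -0.099 and -0.11. The 11 extended ones had 129 to 881 reads over the 3 libraries. Of the 9 others, HIST1H2BK had 1758 reads and HIST1H1C 700, and the remaining 7 had only 44 to 96. Class and read depth therefore cannot be told apart among most tested members. The 25 extended members summed to 3227, 2072 and 1764 reads, ratios to shControl of 0.699 (0.662 to 0.739) and 0.574 (0.541 to 0.609). The 8 models that ended at the stem-loop had 76, 69 and 81 reads, ratios of 0.989 (0.703 to 1.39) and 1.12 (0.808 to 1.55). The 38 models with neither feature had ratios of 0.928 (0.852 to 1.01) and 0.861 (0.790 to 0.938), and HIST1H2BK and HIST1H1C supplied most of their reads. Both of these lay below shControl, HIST1H2BK at 0.887 and 0.770 and HIST1H1C at 0.869 and 0.815. Leaving them out was decided after the values were seen, and it raised the ratios. Without those 2, the 44 members outside the extended class had 285, 288 and 324 reads, ratios of 1.10 (0.931 to 1.30) and 1.19 (1.01 to 1.40). With sums of reads as totals these were 1.03 and 1.10, so whether this remainder lay above shControl in shUSP16-2 beyond counting error depended on the scaling (0.934 to 1.29 with sums of reads).

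**Figure D3:**
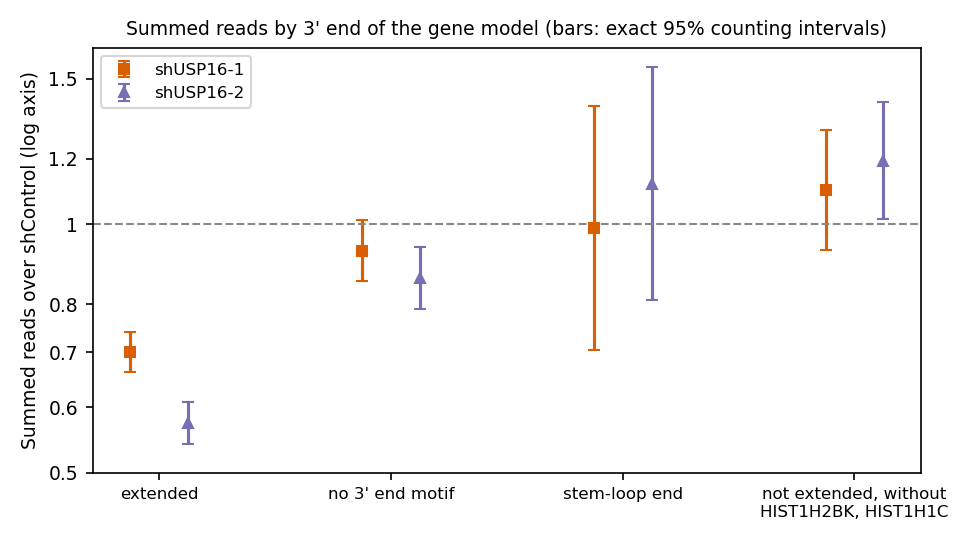
Summed reads relative to shControl (log axis) by the 3' end of the gene model, with squares for shUSP16-1 and triangles for shUSP16-2; bars are exact 95% counting intervals. The extended class lies at 0.699 and 0.574, and the bars of the stem-loop class span 1.

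By type, the split was not the same in each. Extended H2B models were at 0.734 and 0.561 of shControl, extended H3 models at 0.610 and 0.537, extended H4 models at 0.575 and 0.632, and extended H2A models at 0.782 and 0.575. The H4 models outside that class had 42, 55 and 58 reads, ratios of 1.43 (0.937 to 2.18) and 1.45 (0.958 to 2.21). The H2A models outside it were at 0.958 (0.700 to 1.31) and 1.32 (0.990 to 1.75), and the H3 models at 1.07 (0.763 to 1.51) and 0.671 (0.453 to 0.985), the latter overlapping the interval of the extended H3 models (0.461 to 0.625). The H2B models outside it, with HIST1H2BK holding most of their 715, 600 and 544 reads, were also below shControl, at 0.914 (0.819 to 1.02) and 0.799 (0.713 to 0.895). No H1 model was extended. By deposited length, 21 members of 1000 bases or more were at 0.669 and 0.552 and 50 shorter members at 0.884 and 0.792. All 21 longer members have extended models, so this split largely repeats the split by class. The table has a single value per gene, so reads before and after the stem-loop cannot be told apart, and the difference between classes was not tested.

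Among the 46 members with at least 10 reads, which include many too low to test, both libraries lay below shControl for 27 and above it for 11, where 37.9% and 37% of 22991 genes with as many reads did, and 32.6% and 43.9% of the protein-coding ones. Singly, 30 members lay below in shUSP16-1 and 32 in shUSP16-2, against 49.6% and 51.2% of all such genes and 43.7% and 44.9% of the protein-coding ones. Of the 23 extended members among them 19 lay below in both and 3 above in both, and of the 23 others 8 lay below and 8 above. HIST1H2BH was an extended member that lay above, at 0.388 FPKM in shControl, 0.828 in shUSP16-1 and 0.783 in shUSP16-2 from 26, 51 and 50 reads. HIST1H3G, also extended, had 8, 28 and 11 reads. In contrast, HIST1H2BL, whose model ends at the stem-loop, had 0, 9 and 14 reads, and HIST1H3A 0, 5 and 13, while HIST3H3, a testis histone gene with a stem-loop end, had 17, 6 and 0. HIST4H4, the only HIST4 gene, had 65, 30 and 33 reads. These 6 were chosen after their values were seen.

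**Figure D4:**
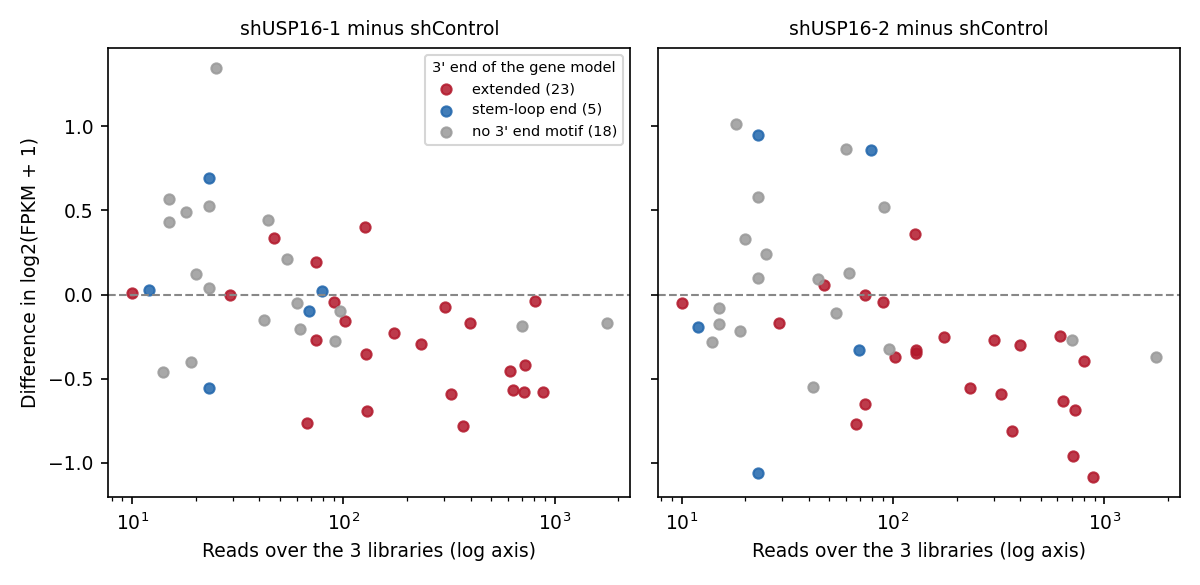
Difference from shControl in log2(FPKM + 1) against the reads of each member over the 3 libraries (log axis), for the 46 members with at least 10 reads, in shUSP16-1 (left) and shUSP16-2 (right), coloured by the 3' end of the gene model. Apart from HIST1H2BH, every extended member (red) with over 100 reads lies below 0 in both panels.

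Histone genes are near-copies of each other, and this touches some of the values. Of the 71 members 41 shared at least 1 stretch of 50 bases with a transcript of another gene, and 16 shared over 50% of theirs. Among the 5 tested members at least 1.5-fold lower, the share was 0% for HIST1H3H and HIST1H4H, 0.421% for HIST1H2AC, 1.29% for HIST1H3E and 8.11% for HIST2H2BE. HIST1H2BK shared 74.1%, mainly with H2BFS, but the rows named H2BFS held only 3, 2 and 1 reads. HIST2H4B, an extended member below the filter with lower ratios than any of these 5, shared 97.2%. It had 55, 6 and 6 reads and overlaps HIST2H3A on the opposite strand; summed with its near-identical copy HIST2H4A the reads were 60, 8 and 6, ratios of 0.145 (0.0600 to 0.305) and 0.105 (0.0371 to 0.242). It was chosen after its values were seen. The sources used here do not say whether counting used strand, so reads of the 2 overlapping genes cannot be told apart. Without the 16 members that share over 50% the ratio of all others, averaged over the libraries labelled shUSP16, was 0.696, against 0.711 with them.

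By locus, the 55 HIST1 genes on chromosome 6 were at 0.782 and 0.696 of shControl, the 12 HIST2 genes on chromosome 1 at 0.595 and 0.457, and the 3 HIST3 genes, also on chromosome 1, at 0.876 and 0.639. Each of these 3 loci lay below shControl in both libraries, with an interval that reached 1.01 for HIST3 in shUSP16-1. HIST2H2BE held most of the HIST2 reads.

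Genes that make and handle histone mRNA are given beside all genes, which as deposited also lay more often above than below shControl. Of 19 genes for histone mRNA synthesis and processing, all tested, both libraries lay above shControl for 12 and below for 4, where 44.9% of all tested genes and 50.2% of protein-coding genes lay above and 32.4% and 28.2% below. With equal sums of reads the list had 10 above and 7 below, against 34.6% and 42.6% of protein-coding genes. SLBP, which binds the stem-loop, was at 41.1 FPKM in shControl, 48.1 in shUSP16-1 and 57.0 in shUSP16-2 (limma adjusted p = 0.363), and NPAT, the histone gene coactivator, at 3.40, 3.96 and 4.32 FPKM. CCNE1, encoding cyclin E1, which drives NPAT activity, was at 2.61, 4.74 and 3.93 FPKM, and SRRT, a cap-complex partner, at 32.4, 42.4 and 43.9 FPKM. LSM11, a U7 ribonucleoprotein protein gene, lay below, with 772, 552 and 684 reads, and its shUSP16-2 ratio was 0.930 (0.838 to 1.03). LSM10, the gene of another U7 protein, lay above, at 26.7, 31.8 and 34.6 FPKM. Of 17 genes for histone mRNA decay and translation 12 lay above in both and 1 below, XRN1, an exonuclease gene, at 3.73, 2.58 and 3.12 FPKM, and with equal sums of reads 7 lay above and 5 below. limma called 0 genes of any list.

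Of 27 tested histone chaperone and assembly genes, 24 lay above shControl in both libraries and 1 below, UBN2, where 50.2% of protein-coding genes lay above. With equal sums of reads 24 lay above and 2 below, where 34.6% lay above. NPM1, a nucleolar chaperone gene, was at 284, 407 and 436 FPKM, SUPT16H, of the FACT complex, at 24.6, 34.6 and 42.4 FPKM, and ANP32E, a chaperone of H2A.Z, at 38.0, 53.6 and 58.8 FPKM. Of 9 tested histone variants, most of which make polyadenylated mRNAs outside S phase (H2AFX makes a stem-loop form too), 6 lay above in both and 1 below, and with equal sums of reads 3 and 2. H3F3B, encoding H3.3, was at 72.8, 91.6 and 91.9 FPKM and H2AFZ, encoding H2A.Z, at 164, 190 and 220 FPKM, while the linker variant H1FX was at 61.7, 49.1 and 44.1 FPKM (limma adjusted p = 0.298). Of 34 DNA replication genes 30 lay above in both and 0 below, with 26 and 1 at equal sums of reads, and the median was 0.22 (shUSP16-1) and 0.51 (shUSP16-2); CDC45, of the replicative helicase, was at 11.6, 17.7 and 19.7 FPKM.

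**Figure D5:**
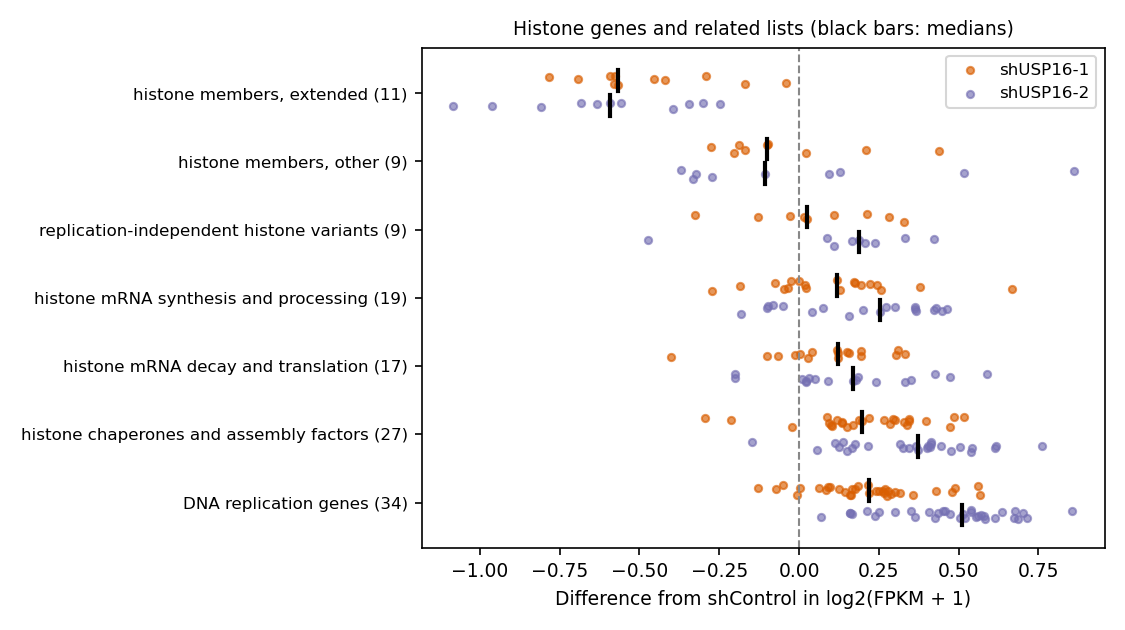
Difference of each tested gene from shControl in log2(FPKM + 1), with the number of tested genes in brackets, orange for shUSP16-1 and purple for shUSP16-2; black bars are medians. Extended histone members lie left of 0 in both libraries, and most chaperone and DNA replication genes lie right of 0.

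RNA selection bears on mRNAs without a tail, and the sources used here do not name it. Of 22 rows for RNAs that lack a poly(A) tail 14 were at 0 in all libraries, RN7SK and RPPH1 among them, and only 4 were tested. RN7SL2, of the signal recognition particle, had 57 (shControl), 400 (shUSP16-1) and 113 reads (shUSP16-2), and SNORD3A, the U3 small nucleolar RNA, had 79, 30 and 41. These moved in different directions, and their part in the histone values was not tested.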

How the data were processed

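The deposited table holds FPKM values by the authors for 58735 genes, with gene length, coordinates and biotype, per the file headers. Aligner, counter, strand setting and RNA selection: not given in the sources used here. GRCm38 and mm10, both mouse, are the builds named per the submitters' processing notes, yet the gene IDs are human, and the deposited gene length of all 71 members equalled the exon union of GENCODE 29, a GRCh38 annotation. FPKM times length was a whole multiple of a step for 100% of values above 0 (tolerance 0.01 reads), which gave reads. The library totals that the authors' FPKM scaling implies were 1.08 (shControl), 1.01 (shUSP16-1) and 0.994 (shUSP16-2) of the sums of reads.

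limma 3.58.1 (R 4.3.3) compared 1 shControl with 2 shUSP16 libraries on log2(FPKM + 1), which understates changes of low genes, with a mean trend and Benjamini-Hochberg adjustment over the 13852 genes averaging 1 FPKM or more. There was 1 residual degree of freedom per gene, and the single shControl library had to be taken as varying like the others. An exact permutation of 3 libraries cannot give a p under 0.333. Ratios of reads carry exact binomial 95% intervals (scipy 1.17.1; tables with pandas 2.3.3 and numpy 2.4.6 in Python 3.11.15; plots with matplotlib 3.10.9).

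Named members were those with a mean of at least 1 FPKM, the 2 with most reads per type and those within 0.25 FPKM below the filter, plus up to 3 genes per list and direction with the largest difference in the weaker library; others, SLBP, NPAT and RN7SK among them, were chosen after their values were seen. The members and lists were chosen with earlier results of these data known. Promoters are from RefSeq (GRCh38.p14). Alternatives were the pseudocount, filters, scaling, gene classes, trend, voom and leaving out each shUSP16 library; splits by 3' end and shared sequence, and the lists' rescaled counts, were added after seeing the data.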

Additional observations from a re-analysis of the deposited data

How the results depend on the processing

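Of the 20 tested members 17 kept their direction in every alternative run. HIST1H3I turned to -0.011 with equal sums of reads, -0.035 with voom on sums of reads and ranged from -0.11 to 0.21 when leaving out 1 library labelled shUSP16. On the same basis HIST1H4C ranged from -0.27 to 0.52 and HIST2H2AC from -0.20 to 0.13. limma calls over all genes went from 0 to 13 with a mean of at least 5 FPKM, 48 among protein-coding genes, 348 with voom and 557 with voom on sums of reads, whose median over all genes was -0.059 against 0.048 with the authors' totals. Members called went from 0 to 1, 1 and 2 under the last 3; under every other alternative that gave a test 0 members were called. Members with both libraries below shControl numbered 33 of 61 with no filter, where 37.2% of 32001 genes did, and 6 of 6 with a mean of at least 5 FPKM, where 21.8% of 7639 did. The median of tested members, -0.25, became -0.34 with a pseudocount of 0.1, -0.088 with no filter, -0.35 with equal sums of reads, and ranged from -0.34 to -0.24 when leaving out 1 library labelled shUSP16.

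Sums by type, averaged over both libraries, depended most on which members entered. H1 went from 0.883 to 0.819 with sums of reads and to 1.08, the other side of 1, without HIST1H1C. H2A went from 0.720 to 0.879 without HIST1H2AC and 0.918 with members under 1000 bases. H3 went from 0.611 to 0.873 with those members and 0.692 as a sum of FPKM. H4 went from 0.660 to 0.613 with sums of reads, 0.596 without HIST1H4I, 0.833 as a sum of FPKM and 1.44, the other side of 1, with members under 1000 bases, which hold few reads. All members went from 0.711 to 0.904 without extended models and to 1.15 when HIST1H2BK and HIST1H1C, themselves below shControl, were also left out. The cause was not tested. No paired analysis was possible because the control library carries no replicate number and is alone. Tests could not be run with 1 library a group, so leaving out a library gives values only. Members under about 10 reads are limited by depth.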

Other observations

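Outside the 71 protein-coding members the table holds 19 further entries with HIST symbols, of which 8 had no read and 1 had a mean of at least 1 FPKM. That one, HIST2H2BC, is annotated as a transcribed unprocessed pseudogene and was at 3.40 FPKM in shControl, 2.24 in shUSP16-1 and 1.90 in shUSP16-2, from 712, 431 and 379 reads. HIST2H2BD, of the same biotype, was at 1.32, 0.834 and 0.536 FPKM from 155, 90 and 60 reads. Both libraries labelled shUSP16 lay below shControl for each of these pseudogenes, which were chosen after their values were seen. Reads shared with the H2B members were not tested for.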
